A study of Mus musculus with 6 samples.

Results

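The genes described here encode the proteins of the mitochondrial ribosome. They were chosen by symbol alone: protein-coding mouse genes named Mrpl or Mrps followed by a digit, with pseudogene symbols left out. The annotation holds 78 such genes and 75 of them were in the deposited table, among 12974 protein-coding genes in all, while Mrpl39, Mrpl47 and Mrps11 were not analysed here. By the role of their products, 28 members encode large-subunit proteins with a bacterial counterpart and 21 large-subunit proteins found in mitochondria without one. Another 15 encode small-subunit proteins with a bacterial counterpart and 10 small-subunit proteins without one. The last member, Mrps36, carries the family symbol but encodes a subunit of the 2-oxoglutarate dehydrogenase complex of the citric acid cycle.

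Mitochondria hold their own ribosome, which translates the few membrane proteins of the respiratory chain and ATP synthase encoded in mitochondrial DNA. Its RNAs come from that DNA, but every one of its proteins is encoded in the nucleus, transcribed by RNA polymerase II, translated in the cytosol and imported. Many of these proteins descend from a bacterial ribosome and the others were added in the course of eukaryotic evolution. Their genes are known as broadly expressed genes, often short and often started next to another gene on the opposite strand, and ETS-family factors, NRF1 and YY1 are known regulators of nuclear genes for mitochondria.

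The libraries were made from mouse embryonic stem cells of strain C57BL/6, in 3 groups of 2: control cells (Mettl3 control), a first Mettl3 knockout (KO1) and a second Mettl3 knockout (KO2). Mettl3 encodes the catalytic subunit of the enzyme complex that places N6-methyladenosine on RNA. All groups were grown in serum with leukaemia inhibitory factor, CHIR99021 (an inhibitor of GSK3) and PD0325901 (an inhibitor of MEK), so the controls carry these inhibitors too. How the knockout alleles were made, and whether each knockout is 1 clone, is not stated by the labels. They also do not say that the 2 libraries of a group came from separate cultures, so p-values measure the spread between these libraries, which may be technical. In mNET-seq, chromatin is cut with micrococcal nuclease, RNA polymerase II is immunoprecipitated, and the short pieces of nascent RNA held in the polymerase are sequenced.

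The measured quantity was the escaping index, a log2 ratio of such signal inside each transcript. Neither its windows nor the read depth could be found in the labels or the table, so no counting error is stated. Across the 12974 genes the control index rose with the genomic span of the transcript (r = 0.693, across genes, which are not independent replicates), so genes are compared below against the trend on span. The index is neither an RNA level nor a total amount of polymerase. Across genes, r between replicate libraries was 0.969 for control, 0.974 for KO1 and 0.977 for KO2, and no pair held identical values for all genes. Of the genes that mark embryonic stem cells, 8 of 8 were in the table, against 2 of 7 fibroblast genes (Col1a1 and Thy1) and 1 of 5 genes of primed or early lineages (Otx2), but presence in the table is not a level. For Mettl3 itself the index was 2.695 and 2.459 in control, 2.443 and 2.423 in KO1, and 2.104 and 2.305 in KO2 (adjusted p = 0.623 and 0.17). A ratio within the transcript does not check the loss of the Mettl3 product.

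Promoters of 66 of the 75 members and of 9598 of the 12974 genes were found in RefSeq, on GRCm38.p6, as windows of 300 bases that run from 250 before the start to 50 after it. A start was taken as matching when it lay within 1000 bases of the annotated start used here. The stretches below lie upstream of the start and of any annotated transcript, and are shown for 4 members that passed in the average contrast (Mrps27, Mrpl57, Mrpl49 and Mrps15), for Mrpl41 and Mrps36, where KO1 and KO2 stood far apart, and for Mrpl58, whose index stayed near control. They are chr13:99344706-99344785 on the plus strand (Mrps27), chr14:57826186-57826233 on the plus strand (Mrpl57), chr19:6057786-6057843 on the minus strand (Mrpl49), chr4:126046835-126046924 on the plus strand (Mrps15), chr13:100744660-100744749 on the minus strand (Mrps36), chr2:24975099-24975188 on the minus strand (Mrpl41) and chr11:115403662-115403751 on the plus strand (Mrpl58). Capitals mark matches to the motifs named in the next paragraph, on either strand.
Mrps27: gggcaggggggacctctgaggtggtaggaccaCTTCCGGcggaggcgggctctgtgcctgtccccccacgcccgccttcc
Mrpl57: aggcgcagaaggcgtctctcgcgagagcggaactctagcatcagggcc
Mrpl49: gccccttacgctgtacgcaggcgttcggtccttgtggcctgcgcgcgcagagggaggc
Mrps15: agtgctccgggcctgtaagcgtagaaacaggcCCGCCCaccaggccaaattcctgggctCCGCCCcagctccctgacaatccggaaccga
Mrps36: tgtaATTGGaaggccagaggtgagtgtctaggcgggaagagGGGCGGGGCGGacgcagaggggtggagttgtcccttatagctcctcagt
Mrpl41: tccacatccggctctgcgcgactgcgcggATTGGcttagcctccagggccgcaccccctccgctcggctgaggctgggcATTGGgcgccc
Mrpl58: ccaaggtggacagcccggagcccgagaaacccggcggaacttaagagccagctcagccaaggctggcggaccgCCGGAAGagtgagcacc

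The ETS motif CCGGAAG stood in the promoter windows of 25 of 66 members (37.9%), against 18.8% of all genes with a window. The YY1 motif AAGATGGC stood in 11 (16.7%), against 4.91%, and the NRF1 motif (GCGCA and GCGC with any base between them) in 12 (18.2%), against 10.8%. At least 1 of these 3 was present in 40 members (60.6%), against 30.7% of all genes. The SP motif GGGCGG was less common among members, at 32 (48.5%) against 68.8%, and their windows had a median GC content of 58.0% against 61.7%. CCAAT, at 39.4% against 39.2%, and the TATA motif TATAAA, at 6.06% against 6.18%, were about as common among members as among all genes. Both strands were searched, the letters of the motifs do not contain one another, and a match is only a match of letters. Called members stood on both sides of each split by the ETS and YY1 motifs. Members with the ETS motif, which both Mrps27 and Mrpl58 carry, had a median change of -0.23 (5 of 25 called lower in the average of both knockouts), and those without it -0.40 (8 of 41). For YY1 the medians were -0.59 with the motif (4 of 11 called lower) and -0.33 without (9 of 55). Over all genes the YY1 motif went the other way, with a median of -0.43 with it (112 of 471 called lower) and -0.47 without (2344 of 9127), and for ETS the values were -0.45 (449 of 1802) and -0.48 (2007 of 7796). For SP the medians were -0.35 with the motif (8 of 32 members called lower) and -0.34 without (5 of 34). Over all genes they were -0.51 with SP (1902 of 6599) and -0.38 without (554 of 2999), the widest split of these motifs. For NRF1 they were -0.33 (2 of 12) and -0.35 (11 of 54) among members. Over all genes they were -0.51 (284 of 1041) and -0.46 (2172 of 8557). These differences were not tested.

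Members were short genes with few exons. Their median span was 7060 bp against 21671 bp for all protein-coding genes, their median spliced length 1316 against 2989 bases, and their median exon number 4 against 8. Spans ran from 789 bp (Mrpl34) to 121773 bp (Mrps28), and 55 members (73.3%) spanned under 10 kb, against 27.3% of all genes. They lay on 17 chromosomes. A divergent start, meaning another gene starting on the opposite strand from 1000 bp upstream to 200 bp downstream of the member's start, was found for 27 members (36.0%) against 13.9% of all genes. An overlap with another annotated gene was found for 40 members (53.3%), close to the 55.1% of all genes. Whether reads were assigned by strand is not given in the sources used here, so in those 40 the signal of the member and of its neighbour cannot be told apart.

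In control cells the median index over members was 3.32 ± 0.039 (SD of the library medians, n = 2) on the log2 scale, and over all genes 4.70 ± 0.0080 (SD, n = 2). The members' lower median went with their short span: against the trend of all genes on span, the median member stood 0.21 above it and 44 of 75 were above it. Across members the control index correlated with log10 span at r = 0.748 (Spearman's rho = 0.710, n = 75 genes from the same libraries). The highest control index was that of Mrps27, at 6.91 and 7.17 in the 2 libraries, followed by Mrps5 (7.16 and 6.84) and Mrps17 (7.24 and 6.73). Mrps27 encodes an RNA-binding protein of the small subunit with pentatricopeptide repeats, and Mrps5 and Mrps17 encode small-subunit proteins of bacterial type. These 3 did not differ from one another beyond the spread of their libraries.

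The high values of Mrps27 and Mrps17 stood differently against span. Mrps27 spans 70777 bp and lay 0.88 above the trend, while Mrps17 spans only 7060 bp and lay 3.73 above it, the furthest of the members. Mrps24 (3.26 above, at a span of 3705 bp) and Mrpl14 (2.66 above, at 12174 bp) came next. The lowest control index was that of Mrpl53, at -1.37 and -2.46, followed by Mrpl41 at -1.53 and -1.48 and Mrpl34 at 0.39 and -0.16. Mrpl53 and Mrpl41 encode large-subunit proteins without a bacterial counterpart, and Mrpl34 a small bacterial-type protein of the large subunit. All 3 span under 1 kb, and the libraries of Mrpl53 were too far apart to place it below Mrpl41. Furthest below the trend were Mrpl27 (-2.52) and Mrpl46 (-2.50), both of which share their start region with another gene.

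**Figure D1:**
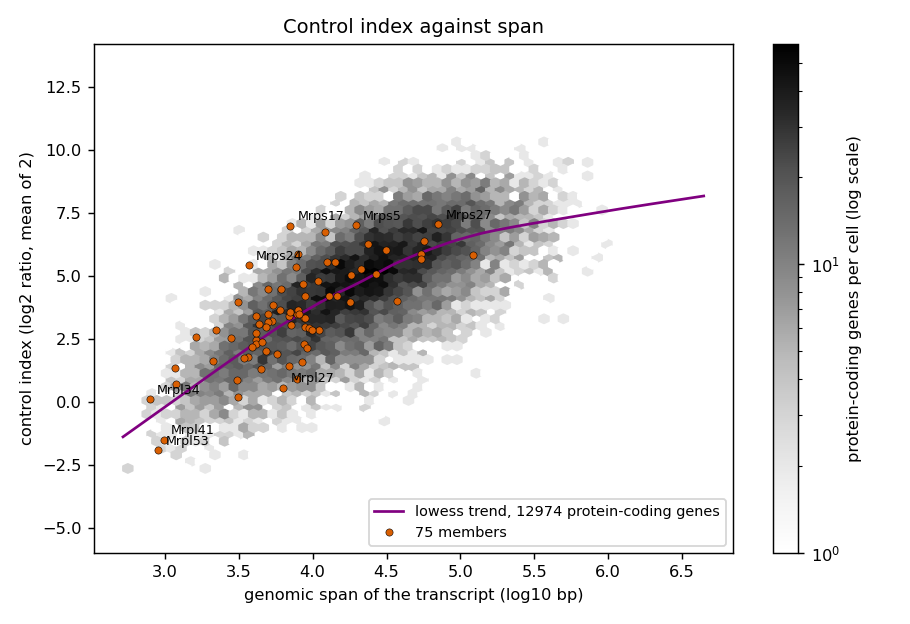
The mean control index of each gene (vertical axis, log2 ratio, mean of 2 libraries) is plotted against the genomic span of its transcript (horizontal axis, log10 bp), with grey cells for the density of 12974 protein-coding genes, the lowess trend as a line and the 75 members as orange points. Members sit at the short end, Mrps17 lies 3.73 above the trend, and Mrpl53 and Mrpl41 are the members with a control index below 0.

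Over the members, the control libraries had a median index of 3.29 and 3.35, the KO1 libraries of 3.24 and 2.98, and the KO2 libraries of 2.91 and 3.19. Before any rescaling all 4 knockout medians lay below both controls, but the 2 libraries of each knockout differed by more than the control pair, and KO1 and KO2 overlapped. The same medians over all genes were 4.69 and 4.70 in control, 4.33 and 4.34 in KO1, and 4.15 and 4.15 in KO2. The median change of members was -0.27 in KO1 against -0.36 for all genes, and -0.41 against -0.56 in KO2. For the average of both it was -0.35 against -0.46. Median centring, which brings the median of all genes to the same value in every library, turned the members' median change to 0.10, 0.14 and 0.11. Whether members moved less than all genes depended on the transcript. With the mean over a gene's distinct transcripts, the median change of members minus that of all genes was -0.038 for KO1, -0.0013 for KO2 and -0.026 for the average, where the longest transcript gave 0.095, 0.15 and 0.10. Without control replicate 2 the KO1 value was 0.0071 and the average value 0.038. KO1 and KO2 were both set against the same 2 control libraries, so their changes are not independent of each other. The part of the shift of all genes in the values below was not tested.

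**Figure D2:**
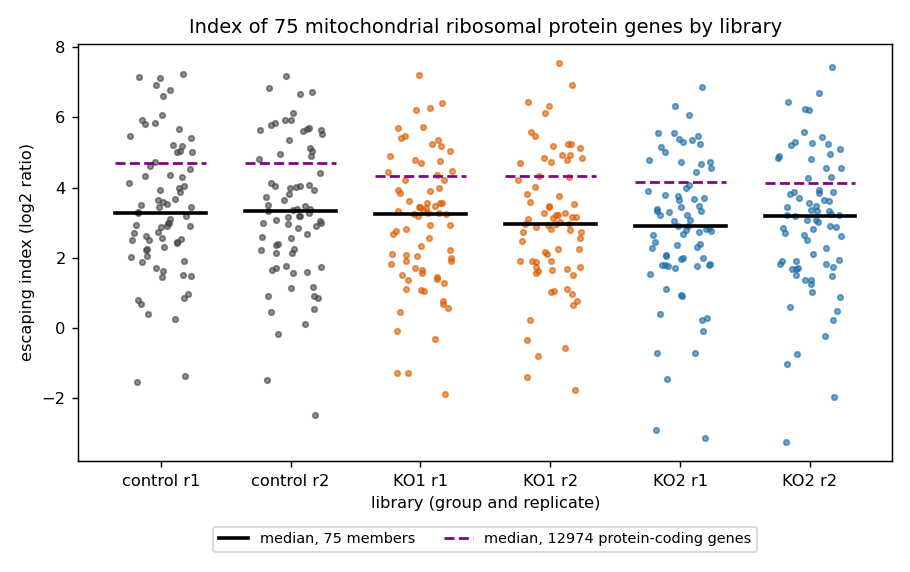
Each point is the escaping index (vertical axis, log2 ratio) of 1 of the 75 members in 1 of the 6 libraries (horizontal axis), with the members' median as a solid line and the median of 12974 protein-coding genes as a dashed line. The members' median goes from 3.29 and 3.35 in control to between 2.91 and 3.24 in the knockouts, while the median change of members turns positive when libraries are centred on the median of all genes, and it stays under the median of all genes in every library.

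Each contrast was tested with limma over all 12974 genes, and a gene was called at a Benjamini-Hochberg adjusted p under 0.05. In KO1, 6 of 75 members were called lower (8.0%), against 4.91% of all genes. In KO2, 18 were called lower (24.0%), against 27.7%, and in the average of both knockouts 16 (21.3%), against 24.9%. None was called higher in limma (all genes 0.2%, 0.516% and 0.501%). At an unadjusted p under 0.05, 1 was higher for KO1, 1 for KO2 and 0 for the average (298, 185 and 195 of all genes). These shares lie near those of all genes, and all of them, like every other call among the 12974 genes, ended when libraries were centred on the median of all genes. Leaving out any 1 library ended every call in KO1 and in the average, for members and for all genes alike, and lowered the count in KO2.

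All 75 members were tested, since no filter was applied. The index was lower than control in 60 of them for KO1, 64 for KO2 and 64 for the average (80.0%, 85.3% and 85.3%). Of all genes, 76.4%, 85.2% and 83.8% were lower. After median centring, 32, 29 and 32 members were lower. All 4 knockout libraries lay below both controls in 34 members (45.3%), against 44.5% of all genes, and above both in 1 (Mrps10), against 2.24%. For KO1 alone, 41 members lay below both controls (all genes 52.5%) and 5 above (8.84%), and for KO2 alone 45 below (66.2%) and 3 above (5.2%). In all, 23 members were called in at least 1 of the 3 contrasts and 52 in none, against 31.9% of all genes called in at least 1. Mrps35, Mrpl4 and Mrpl49 passed in each knockout, which share their control libraries.

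**Figure D3:**
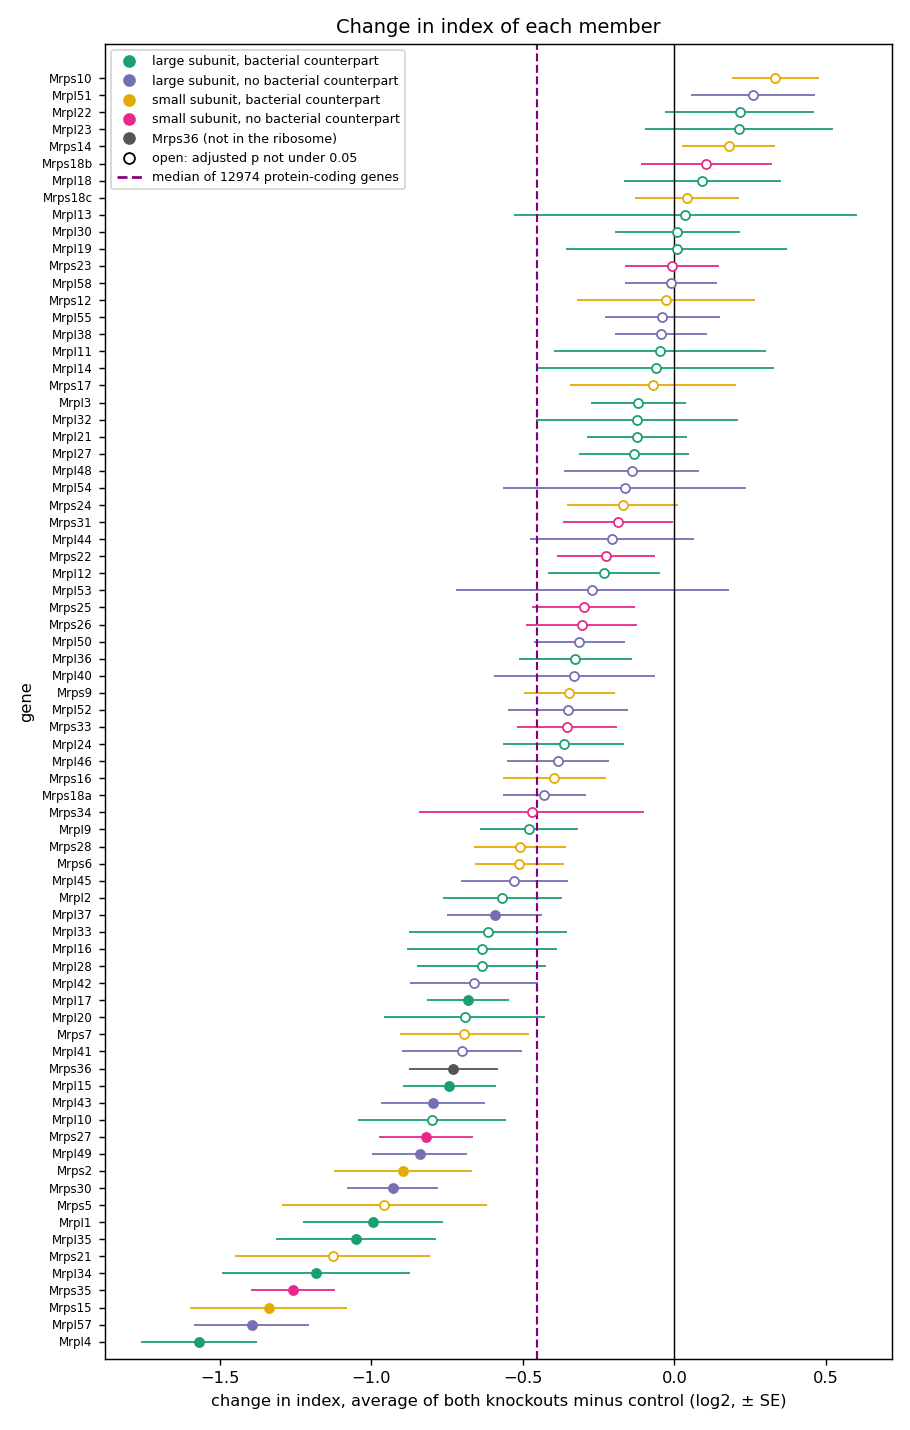
The change in index (horizontal axis, log2, average of both knockouts minus control, bars ± SE) is drawn for each of the 75 members (vertical axis), coloured by role, filled where the adjusted p was under 0.05, with the median of all genes as a dashed line. The 16 filled points run from -1.57 (Mrpl4) to -0.59 (Mrpl37), and 43 members lie to the right of the dashed line, so that they stand above control after median centring.

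Among large-subunit proteins with a bacterial counterpart, 2 of 28 were called lower in KO1 and 6 in KO2, and in the average of both 6 were called, with a median change of -0.35 that became 0.11 after median centring. Mrpl4 (ENSMUSG00000003299, GRCm38 chromosome 9, 21002738 to 21008839, plus strand), a protein that lines the exit tunnel for the new chain, had the largest change. Its index was 4.52 and 4.42 in control, 2.93 and 2.57 in KO1, and 2.86 and 3.23 in KO2. It fell by 1.57 ± 0.19 (SE) on the log2 scale in the average of both knockouts (adjusted p = 0.0191), and in each knockout alone (adjusted p = 0.0404 and 0.0192). The gap between the control and knockout libraries was larger than the spread within any group. After median centring its change was -1.11.

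Mrpl17, a large-subunit protein of bacterial type, differed between the knockouts in size. It read 5.84 and 5.91 in control, 4.78 and 4.85 in KO1, and 5.56 and 5.58 in KO2. It fell by 1.06 ± 0.16 in KO1 (adjusted p = 0.0417), while its change in KO2 was -0.31 ± 0.16 (adjusted p = 0.18). All 4 knockout libraries were below both controls, with KO2 between control and KO1. Mrpl15, of the large-subunit core, read 5.47 and 5.65 in control, 4.90 and 4.69 in KO1, and 4.79 and 4.90 in KO2, and fell by 0.74 ± 0.15 in the average (adjusted p = 0.0267). Its knockout libraries did not separate by knockout.

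Mrpl1, the protein of the mobile stalk beside the exit site for transfer RNA, read 6.62 and 6.12 in control, 5.72 and 5.19 in KO1, and 5.31 and 5.26 in KO2. It fell by 1.00 ± 0.23 in the average (adjusted p = 0.0335). Mrpl35 read 4.61 and 4.97 in control, 3.61 and 4.32 in KO1, and 3.32 and 3.71 in KO2, and fell by 1.05 ± 0.26 (adjusted p = 0.04). In both genes all 4 knockout libraries were below both controls, and the control and KO1 pairs of Mrpl1 and the KO1 pair of Mrpl35 stood well apart. Mrpl34 was called in the average only, at -1.18 ± 0.31 (adjusted p = 0.0437). Mrpl9 (-0.73 ± 0.19, adjusted p = 0.0386) and Mrpl2, a protein near the peptidyl transferase centre (-0.87 ± 0.23, adjusted p = 0.0406), were called in KO2 only.

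Among the 21 large-subunit proteins without a bacterial counterpart, 2 were called lower for KO1, 5 for KO2 and 5 for the average. All genes had 4.91%, 27.7% and 24.9% called lower. The median average change of the group was -0.35 (0.11 after median centring). Mrpl57 (ENSMUSG00000021967, chromosome 14, 57826234 to 57829296, plus strand), a very small protein of the large subunit, read 0.81 and 0.92 in control, -0.07 and -0.33 in KO1, and -0.70 and -1.02 in KO2. It fell by 1.72 ± 0.22 in KO2 (adjusted p = 0.0181) and by 1.40 ± 0.19 in the average (adjusted p = 0.0194), while the change in KO1 was -1.07 ± 0.22 (adjusted p = 0.0521). The 3 groups did not overlap, in the order control, KO1, KO2. Mrpl57 has 1 transcript in the table and overlaps no other gene. Its low index took it out of the fit when genes were filtered on their mean index.

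Mrpl49 read 2.52 and 2.40 in control, 1.38 and 1.62 in KO1, and 1.78 and 1.71 in KO2. It fell by 0.84 ± 0.16 in the average (adjusted p = 0.0231) and passed in each knockout (adjusted p = 0.0487 and 0.0382). All knockout libraries were below both controls, and the gene overlaps Syvn1. Mrpl43, which overlaps Twnk, the gene of the mitochondrial DNA helicase, read 2.44 and 2.69 in control, 1.40 and 1.11 in KO1, and 2.30 and 2.27 in KO2. It fell by 1.31 ± 0.20 in KO1 (adjusted p = 0.042) and its change in KO2 was -0.28 ± 0.20 (adjusted p = 0.309). Mrpl37 was called in the average only (-0.59 ± 0.16, adjusted p = 0.0441) and Mrpl50 in KO2 only (-0.64 ± 0.17, adjusted p = 0.0448), its KO1 libraries at 1.57 and 1.64 being level with its controls at 1.63 and 1.56.

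Mrpl41 (ENSMUSG00000036850, chromosome 2, 24974117 to 24975098, minus strand) read -1.53 and -1.48 in control, -1.28 and -1.40 in KO1, and -2.89 and -3.25 in KO2. Its product sits in the large subunit near the exit of the tunnel. It fell by 1.57 ± 0.23 in KO2 (adjusted p = 0.0185), whereas its change in KO1 was 0.16 ± 0.23 (adjusted p = 0.659). The KO1 libraries lay just above both controls and the KO2 libraries far below them. Its index is among the lowest of the members and its span only 982 bp, so these values come from a very short transcript whose read depth is unknown.

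Among the 15 small-subunit proteins with a bacterial counterpart, limma called 0 for KO1, 5 in KO2 and 2 in the average. All genes had 4.91%, 27.7% and 24.9% called lower. At an unadjusted p under 0.05, 5 were lower and 1 higher in KO1, against 3779 and 298 of the 12974 genes. The median change in the average was -0.40 (0.06 after median centring). Mrps15, which binds the small-subunit RNA directly, read 4.29 and 5.04 in control, 3.57 and 3.16 in KO1, and 3.35 and 3.24 in KO2. It fell by 1.37 ± 0.30 in KO2 (adjusted p = 0.0277) and by 1.34 ± 0.26 in the average (adjusted p = 0.0242). All knockout libraries were below the lower control, and the controls stood well apart. Mrps2 read 3.87 and 4.08 in control, 3.28 and 2.96 in KO1, and 2.75 and 3.34 in KO2, and fell by 0.90 ± 0.23 in the average (adjusted p = 0.0404).

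Mrps21 (-1.33 ± 0.37, adjusted p = 0.0468), Mrps6 (-0.67 ± 0.17, adjusted p = 0.0378) and Mrps28 (-0.66 ± 0.18, adjusted p = 0.042), all bacterial-type proteins of the small subunit, were called in KO2 only. The controls of Mrps21 stood far apart, at 4.72 and 3.66. Mrps5, a protein of the entry side of the small subunit, had a change of -0.96 ± 0.34 in the average that did not pass (adjusted p = 0.0867), with 5.70 and 6.44 in KO1 and 5.57 and 6.45 in KO2. Mrps17, whose control index was the highest for its span, read 6.41 and 6.92 in KO1 and 6.87 and 7.43 in KO2, which overlapped its controls, and its average change was -0.07 ± 0.27 (adjusted p = 0.858).

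Of the 10 small-subunit proteins without a bacterial counterpart, 1 was called for KO1, 2 for KO2 and 2 for the average. All genes had 4.91%, 27.7% and 24.9% called lower. The median average change of the group was -0.30 (0.15 after median centring). Mrps35 (ENSMUSG00000040112, chromosome 6, 147042764 to 147073991, plus strand) read 6.07 and 5.93 in control, 4.70 and 4.72 in KO1, and 4.74 and 4.81 in KO2. It fell by 1.29 ± 0.16 in KO1 (adjusted p = 0.0404), by 1.23 ± 0.16 in KO2 (adjusted p = 0.0181) and by 1.26 ± 0.14 in the average (adjusted p = 0.0191, the smallest of the members, shared with Mrpl4). The 4 knockout libraries lay close together and far from the controls. Mrps27, named above for its high control index, read 6.20 and 6.14 in KO1 and 6.31 and 6.23 in KO2, and fell by 0.82 ± 0.16 in the average (adjusted p = 0.0235).

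The 3 members whose symbols misstate their place were followed by name. Mrps30 encodes a large-subunit protein in spite of its symbol and read 2.90 and 3.06 in control, 2.22 and 2.26 in KO1, and 1.79 and 1.93 in KO2. It fell by 0.93 ± 0.15 in the average (adjusted p = 0.0197), with the 3 groups apart from each other. Mrps18a, also a large-subunit protein, had a change of -0.43 ± 0.14 that did not pass (adjusted p = 0.0678), although all 4 knockout libraries (3.44 to 3.65) were below both controls (3.92 and 3.99). Mrps36 (ENSMUSG00000061474, chromosome 13, 100735955 to 100744659, minus strand), of the 2-oxoglutarate dehydrogenase complex, read 2.32 and 2.25 in control, 1.05 and 1.07 in KO1, and 1.99 and 2.12 in KO2. It fell by 1.23 ± 0.17 in KO1 (adjusted p = 0.0409) and by 0.73 ± 0.15 in the average (adjusted p = 0.0257), and its change in KO2 was -0.23 ± 0.17 (adjusted p = 0.327).

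**Figure D4:**
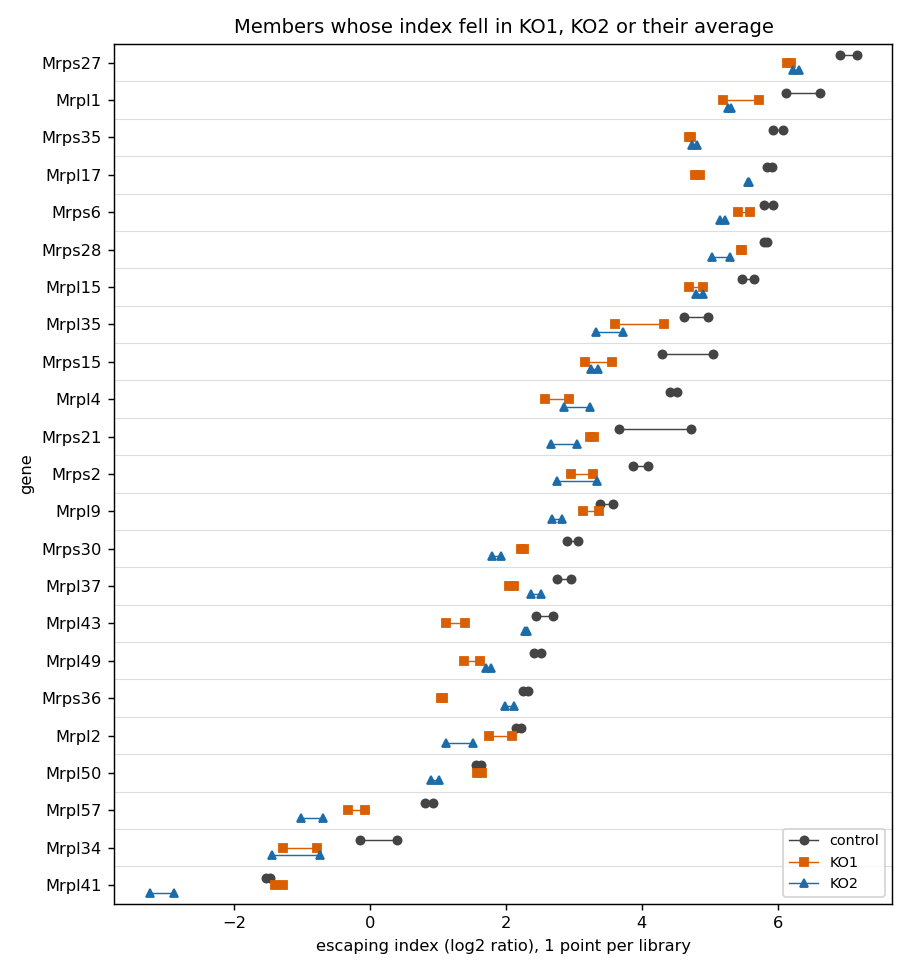
The escaping index (horizontal axis, log2 ratio) is drawn for each of the 6 libraries, 1 point per library and a line joining the 2 of a group, for the 23 members (vertical axis) called lower in KO1, KO2 or their average, calls that all end after median centring. In 21 of them all 4 knockout libraries lie below both controls, against 34 of all 75 members and 44.5% of all genes. The 23 were picked from these same libraries for a small p, so this adds no support. The other 2, Mrpl41 and Mrpl50, have KO1 libraries level with or above a control.

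No member passed in the upward direction, and the members with the largest rises were small in size. Mrps10, a bacterial-type protein of the small-subunit head, read 3.00 and 2.85 in control, 3.27 and 3.21 in KO1, and 3.23 and 3.33 in KO2, an average change of 0.33 ± 0.14 (adjusted p = 0.135). It was the only member with all 4 knockout libraries above both controls. Mrpl51 followed at 0.26 ± 0.21 (adjusted p = 0.367), with KO2 libraries of 3.46 and 3.37 above controls of 2.89 and 2.57 and KO1 libraries, at 2.33 and 2.82, that were not. Mrpl22 (0.22 ± 0.25, adjusted p = 0.527), Mrpl23 (0.21 ± 0.31, adjusted p = 0.622) and Mrps14 (0.18 ± 0.15, adjusted p = 0.403) did not pass either. The sign of Mrpl22 and Mrpl23 turned without the second control library (-0.14 and -0.29), and those of Mrpl23 and Mrpl51 with the mean of all their transcripts (-0.35 and -0.08). Mrpl58, which encodes a peptidyl-tRNA hydrolase that frees stalled ribosomes, stayed at -0.01 ± 0.15, with controls of 3.31 and 3.35 and knockout libraries between 3.10 and 3.44. It was picked as an example after its values were seen.

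Some members could not be read because their replicates differed. Mrpl13, a bacterial-type protein of the large subunit, read 7.12 and 5.36 in the 2 control libraries, the widest control pair among the members, and 7.20, 6.33, 5.38 and 6.21 in the knockouts. Its average change was 0.04 ± 0.57. Mrpl53 likewise read between -3.13 and -1.76 in the knockouts, around its controls of -1.37 and -2.46. Mrpl13 and Mrpl53 were singled out here after their values were seen.

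Between KO1 and KO2, limma called 0 members and 0 of all genes (0.0%). At an unadjusted p under 0.05 the index of 5 of 75 members was lower and of 8 higher in KO1. Among the 12974 genes, 451 were lower and 2156 higher. The median difference, KO1 minus KO2, was 0.07 over members against 0.19 over all genes, and it turned to -0.12 after median centring. The 3 members with the smallest p were Mrpl41, with a difference of 1.73 ± 0.23, Mrps36, with -0.999 ± 0.17, and Mrpl43, with -1.03 ± 0.20, each at an adjusted p of 0.131. In Mrpl41 the KO2 libraries stood apart, and in Mrps36 and Mrpl43 the KO1 libraries did. For these genes a call in 1 knockout only is therefore not shown to differ from the other knockout.

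**Figure D5:**
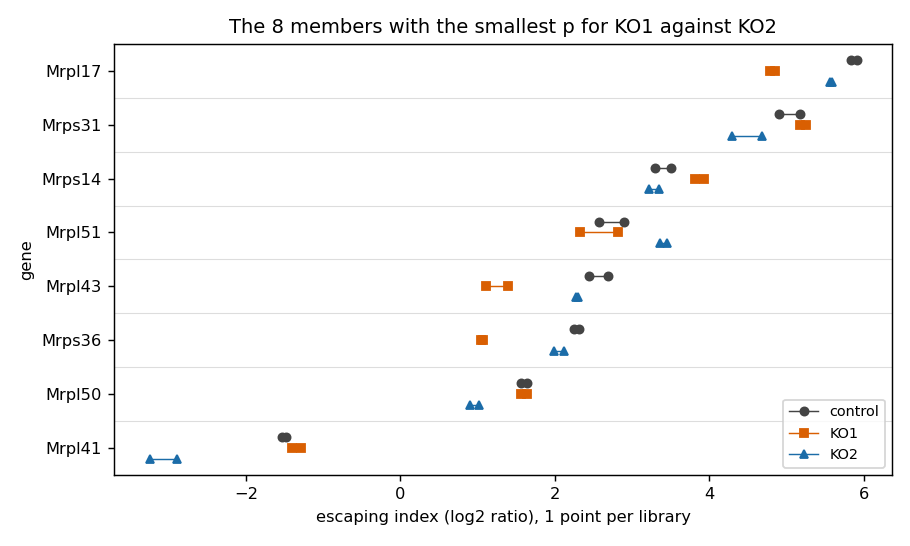
The escaping index (horizontal axis, log2 ratio, 1 point per library, lines joining the 2 of a group) is drawn for the 8 members (vertical axis) with the smallest p for KO1 against KO2, none of which passed adjustment. KO2 lies far below the other groups in Mrpl41, and KO1 far below them in Mrps36, Mrpl43 and Mrpl17.

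The values above come from 1 transcript per gene, the longest protein-coding one. The table holds more than 1 distinct value for 65 members, 295 distinct transcripts in all, up to 11 for 1 member (Mrps17). Of the 295, 214 were lower in the average of both knockouts and 96 had all 4 knockout libraries below both controls, without rescaling. At 1 transcript per gene, 83.8% of all genes were lower and 44.5% had all 4 knockout libraries below both controls. The share over all transcripts was not computed. Transcripts of a gene could move apart: 2 of the 5 of Mrps35 were lower, with changes from -1.26 to 0.33, 6 of the 8 of Mrpl4, from -1.57 to 0.81, and 1 of the 2 of Mrps30, from -0.93 to 0.22. With the mean over all distinct transcripts of a gene, 6 of the 16 average calls were kept, for Mrpl57, Mrpl49, Mrps15, Mrpl15, Mrpl43 and Mrpl1. The 10 that ended were Mrps35 (-0.37, adjusted p = 0.176), Mrpl4 (-0.38, adjusted p = 0.121), Mrps30 (-0.35, adjusted p = 0.121), Mrps27 (-0.54, adjusted p = 0.0562), Mrpl17, Mrps36, Mrpl35, Mrps2, Mrpl34 and Mrpl37.

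Members that overlap no other gene and those that do were compared as groups. In the average of both knockouts, 10 of the 35 without an overlap were called lower, with a median change of -0.40 (0.06 after median centring), and 6 of the 40 with one, with a median of -0.33 (0.13). The same shares over all genes were 25.6% without an overlap and 24.4% with one. Members with a span over their median had 10 of 37 called and a median of -0.48 (-0.02 after median centring), and the shorter ones 6 of 38 and -0.29 (0.17). All genes above that same span had 26.2% called, and all genes at or under it 19.5%. Across members the change did not follow span (r = -0.04, n = 75 genes from the same libraries). These groups were not tested against each other.

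Of the 27 members with a divergent start, 5 were called lower in the average (18.5%), against 20.6% of all genes with one, and of the 48 others 11 (22.9%), against 25.6%. Partner genes were in the table for 25 of the 27 pairs; the partner of Mrpl46 is another member, Mrps11, which was not analysed here. Of the 25 partners, 20 were lower than control without rescaling, 3 were called lower and 1 higher. Of the 1803 genes with a divergent start, 84.6% were lower, 371 were called lower and 9 higher. Without rescaling, the median change was -0.26 for partners and -0.21 for the members of these pairs, against -0.40 for all genes with a divergent start. Both sides were called in the average in 2 pairs. Mrpl49 shares its start region with Fau, which encodes a fusion of a ubiquitin-like protein and a cytosolic ribosomal protein, at a distance of 59 bp. Fau read 2.69 and 2.63 in control, 2.50 and 2.60 in KO1, and 1.69 and 1.75 in KO2, and fell by 0.53 ± 0.14 (adjusted p = 0.048), with most of that in KO2. Mrps27 starts 81 bp from Ptcd2, another gene for a mitochondrial pentatricopeptide repeat protein, which fell by 0.94 ± 0.18 (adjusted p = 0.024), from 5.51 and 5.78 in control to 4.41 and 4.74 in KO1 and 4.72 and 4.96 in KO2.

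Ska3, the partner of Mrpl57, had a change of -0.60 ± 0.18 that did not pass in the average (adjusted p = 0.06), but in KO2, where Mrpl57 was called, Ska3 fell by 0.89 (adjusted p = 0.0324). Mtbp, the partner of Mrpl13, fell by 0.52 ± 0.14 (adjusted p = 0.049), while Mrpl13 could not be read. Eme1, which encodes a DNA repair endonuclease subunit, was higher by 1.02 ± 0.26 (adjusted p = 0.04), at 5.36 and 5.34 in control, 6.46 and 7.05 in KO1, and 6.27 and 5.66 in KO2. Its partner Mrpl27 had a change of -0.13 (adjusted p = 0.594). Eme1 and Mrpl27 overlap around their starts, where the signal of one cannot be told from that of the other.

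Other genes of mitochondrial gene expression were taken from lists by function. The 5 mitochondrial ribosome proteins under other symbols had a median change of -0.89 in the average, or -0.44 after median centring. Among them Aurkaip1 (-0.89 ± 0.22, adjusted p = 0.037) and Chchd1 (-0.90 ± 0.25, adjusted p = 0.047) fell in the average, and Dap3, Ptcd3 and Gadd45gip1 did not pass. Of 26 assembly factors, 24 were measured, and 8 were called lower and 1 higher in the average. Fastkd2, an RNA-binding protein of ribosome assembly, changed by -0.97 ± 0.14 (adjusted p = 0.019), and Gtpbp10, a GTPase of large-subunit assembly, by -0.77 ± 0.14 (adjusted p = 0.022). Mtg2, another GTPase of the large subunit, was higher by 1.05 ± 0.18 (adjusted p = 0.02).

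Of 17 translation factors, 15 were measured, with 2 called lower and 1 higher. Guf1, an elongation factor of the LepA type, fell by 1.31 ± 0.15 (adjusted p = 0.019) and passed in each knockout. 1700021F05Rik, now named Mtres1, a factor that acts on stalled mitochondrial ribosomes, fell by 0.64 ± 0.16 (adjusted p = 0.037). Tufm, the elongation factor that brings transfer RNA to the ribosome, was higher by 1.34 ± 0.36 (adjusted p = 0.048). Of 20 genes for mitochondrial aminoacyl-tRNA synthetases and the transamidase that charges glutamine transfer RNA, Aars2 (-0.81 ± 0.14, adjusted p = 0.022) and Cars2 (-1.11 ± 0.25, adjusted p = 0.031) fell and none was called higher.

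Of 17 genes for mitochondrial transcription and RNA processing, 16 were measured and 3 fell: Trmt10c (-0.77 ± 0.16, adjusted p = 0.028) and Elac2 (-0.88 ± 0.19, adjusted p = 0.03), parts of the enzymes that cut the primary transcript at transfer RNAs, and Grsf1 (-0.67 ± 0.15, adjusted p = 0.031), of the RNA granules. Of 8 transcription factors and coactivators of mitochondrial genes, 7 were measured and 2 fell. Gabpa, the ETS-family factor whose motif was counted above, fell by 1.08 ± 0.16 (adjusted p = 0.02) and passed in each knockout, and the coactivator Ppargc1b fell by 1.22 ± 0.22 (adjusted p = 0.022). Nrf1 (-0.64 ± 0.28, adjusted p = 0.132) and Yy1 (-0.25 ± 0.18, adjusted p = 0.33) did not pass. In all lists the share called lower is to be read against 24.9% of all genes in the average.

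The members were set beside 2 other families of short, broadly expressed genes. Of 85 cytosolic ribosomal protein genes, 1 was called lower for KO1, 26 for KO2 and 19 for the average, with median changes of -0.23, -0.52 and -0.35 (0.14, 0.03 and 0.10 after median centring). Of 80 oxidative phosphorylation genes, 1, 22 and 10 were called lower, with medians of -0.21, -0.55 and -0.40 (0.15, 0.00070 and 0.06). The 3 families had similar control medians, at 3.32 for members, 3.51 for cytosolic ribosomal proteins and 3.44 for oxidative phosphorylation. Against span they differed, the median gene standing 0.21 above the trend for members, 1.37 for cytosolic ribosomal proteins and 0.33 for oxidative phosphorylation. The shares called lower over all genes were 4.91% for KO1, 27.7% for KO2 and 24.9% for the average. In KO1, the members held 6 calls in 75 (8.0%) where the other families held 1 each. At an unadjusted p under 0.05 in limma, 24 of 75 members, 21 of 85 and 22 of 80 genes were lower in KO1. With the mean over distinct transcripts the members held 1 call in KO1. The difference in calls was not tested. It rests on calls that, like all others in KO1, are lost when any 1 library is left out.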

How the data were processed

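The authors deposited 1 table of log2 values, an escaping index for 68473 transcripts in 6 mNET-seq libraries. Per the submitters' processing notes, CASAVA, Trimmomatic 0.38, HISAT2 2.1.0, featureCounts and the mm10 build were used; their settings were not found. In each library the values are log2 ratios with a small added offset, and no scaling between libraries was found, so a shift of the whole index enters every change. Transcripts were matched to GENCODE M21 (68397 matched and 76 did not), and the longest protein-coding transcript stood for each of 12974 genes. The fit over all 6 libraries used limma (3.58.1; R 4.3.3; group means, variance trend, 3 residual and 2.66 prior degrees of freedom, two-sided, adjusted over 12974 genes). In 5 simulated runs the fit recovered 65.6% of changes of 2 and 23.8% of changes of 1 (log2) in the average contrast. Summed over the runs, 30 of 477 calls were false. In KO1 the fit recovered 50.2% and 3.6%, and in KO2 48.8% and 3.4%. Only a small set of genes was changed in the simulation, with no shift of all genes. These shares therefore do not give the recovery in the real contrasts. Promoters were from RefSeq. Members and gene lists were chosen with earlier results of these data known. Members were named by a rule: up to 10 called per contrast and direction by p, the 3 highest and 3 lowest control values, the 5 largest rises, the 3 smallest p between knockouts, and Mrps30, Mrps18a and Mrps36; other called members and examples were added after their values were seen. Of each other list up to 4 called genes, or the 3 with the smallest p, were named. Alternatives covered the transcript, gene set, scaling, pseudocount, filter, overlap, variance model, groups fitted, replicate block and each library left out. Whole-number reads could not be recovered from this ratio, so depth is unknown.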

Additional observations from a re-analysis of the deposited data

Results flagged for a closer look

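The index of Mrpl41 lay above both controls in both KO1 libraries and below both in both KO2 libraries, so the 2 knockouts stood on opposite sides of control (KO1 minus KO2 1.73 on the log2 scale, limma adjusted p = 0.131). Mrps31, which encodes a small-subunit protein, showed the same arrangement, at 5.17 and 4.90 in control, 5.17 and 5.25 in KO1, and 4.69 and 4.29 in KO2 (KO1 minus KO2 0.73, adjusted p = 0.167). Neither difference passed. These are 2 of 75 members (2.67%), against 3.39% of all protein-coding genes with such an arrangement in either order.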

How the results depend on the processing

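Without any rescaling 6 members were called for KO1, 18 for KO2 and 16 for the average. Median centring, quantile normalization and taking off the trend on span each left 0 members called in each contrast, and 0 of all genes, in limma. At an unadjusted p under 0.05, median centring left 9 members lower and 5 higher for KO1, 6 and 10 for KO2, and 5 and 9 for the average. Among the 12974 genes these counts were 1356 and 1327 for KO1, 1586 and 1404 for KO2, and 1600 and 1481 for the average. Under the 3 rescalings the members' median change turned to 0.099, 0.076 and 0.059 for KO1, and 0.14, 0.13 and 0.10 for KO2. It turned to 0.11, 0.090 and 0.062 for the average, and to -0.12, -0.13 and -0.12 between KO1 and KO2. Each rescaling takes off the shift of all genes by construction. The 40 called changes, from 23 members, stayed negative under median centring. They had been picked by a small p for a fall, and each fall was larger than the shift taken off. Their sign therefore follows from the choice and adds no support. In KO1, 1 member was called with the mean over distinct transcripts, 0 with genes of every biotype, 3 among genes without an overlap and 0 when only the 2 groups were fitted (all genes 121, 0, 268 and 0, against 663). In KO2, 10 were called with every biotype, 10 without overlaps (35 members tested) and 8 with only the 2 groups (all genes 2952, 1636 and 2519, against 3657; 2223 with the mean over transcripts). In the average, 8 were called with the mean over distinct transcripts (all genes 1918, against 3298; 1842 with the knockouts as 1 group and 1501 without overlaps). The cause was not tested. Mrpl23 turned to -1.30 with its longest-span transcript (adjusted p = 0.0465) and to -0.35 with the mean over transcripts, and Mrpl51 to -0.081 with that mean.

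Leaving out 1 library at a time ended every call for KO1 and for the average, of members and of all genes alike. It left fewer members called for KO2. In KO2 the count was 4 without control replicate 1, 8 without either KO1 library and 0 without control replicate 2 or either KO2 library (all genes 984, 2519, 2510 and 0). The median of members ranged from -0.018 to 0.13 between KO1 and KO2, lowest without KO2 replicate 1. The change of Mrpl22 ranged from -0.14 to 0.57 and that of Mrpl23 from -0.29 to 0.71, both lowest without control replicate 2. A lone library was then assumed to vary like the other groups.

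The replicate numbers did not pair the libraries (correlations of deviations 0.0020, -0.0070 and 0.010). With them as a replicate block, 0 members were called for KO1, 9 for KO2 and 12 for the average (all genes 0, 2709 and 2161). The pseudocount of 1, the filter on the mean index, the longest-span transcript and the fit without a variance trend kept every count of members within 1.5 times. The filter left 70 members to test and took out the called Mrpl57, Mrpl41 and Mrpl34, whose index is low. With 2 libraries a group and an unknown depth, small changes of short, low-index genes such as Mrpl53 were not resolved.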
